A study of Caenorhabditis elegans with 8 samples.

Results

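The glutathione S-transferase genes of Caenorhabditis elegans were followed on 8 Affymetrix C. elegans Gene 1.0 ST arrays of whole animals. Members were the features whose only platform symbol is gst, gstk or gsto with a number, together with gcs-1 and gsr-1. This gave 50 genes of 25478 with exactly 1 symbol, each measured by 1 feature, and all 50 are protein-coding with the same symbol in the RefSeq table of assembly WBcel235. The transferase gst-25, which that table also lists, was not analysed here.

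The 8 groups were 4 strains on 2 RNAi foods, with 1 array in each group. Per the labels, N2 is the wild type with RNAi throughout the body, while RNAi is limited to intestine (VP303), to muscle (NR350) or to neurons (TU3401) in the other strains. Each strain was given control RNAi or ash-2 RNAi for 3 days, between the egg and the young adult, and strains were kept at 20 °C. As background that is not in the labels, VP303 and NR350 are rde-1 mutants with rde-1 restored by an intestinal (nhx-2) and a muscle (hlh-1) promoter, and TU3401 is a sid-1 mutant with sid-1 restored by a neuronal (unc-119) promoter. The series title asks whether epigenetic information from the intestine reaches the germ line and sets stress resistance, which makes the genes of glutathione detoxification a readout of interest.

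Glutathione is a small thiol that cells use to reduce peroxides and to tag reactive chemicals. The ligase subunit encoded by gcs-1 makes its precursor in the rate-limiting step, and the reductase gsr-1 returns the oxidised form to the reduced one. Glutathione S-transferases join glutathione to electrophiles so that exporters can remove the product. In C. elegans many of these genes are targets of the stress factor SKN-1, and gst-4 and gcs-1 are its standard reporters. Omega-class transferases (gsto) also reduce other thiols and dehydroascorbate, the zeta-class gst-42 acts in tyrosine breakdown, and kappa-class enzymes (gstk) belong to mitochondria and peroxisomes.

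The ash-2 signal, which RNAi should lower, was higher on the array labelled ash-2 in all 4 strains, by 0.29 to 0.89 on the log2 scale (mean 0.63 ± 0.25 SD, n = 4 strains, limma adjusted p = 0.302). Every direction of response below therefore rests on the labels, and such an array is named by its label throughout. Of the genes that could mark the strains, rde-1 rose against N2 by 2.45 in VP303, sur-5 by 3.84 in NR350 and sid-1 by 1.78 in TU3401. The largest rise among them was that of rol-6, 7.52 in VP303, which also rose by 0.89 in NR350 (limma adjusted p = 0.00511). Not all restored or promoter genes showed a rise: rde-1 differed by -0.21 in NR350 (limma adjusted p = 0.470) and unc-119 by -0.09 in TU3401 (adjusted p = 0.788). Array medians lay between 21.1 and 21.6 units of intensity and the lowest values near 18. The labels name a tissue for VP303, NR350 and TU3401, but RNA came from whole worms, and muscle, neuron and intestine markers were read in every strain. Of 8 muscle, 10 neuron and 9 intestine markers measured, 8, 7 and 9 had a mean log2 intensity above 5. In such bulk samples, fewer cells of a type and less RNA per cell cannot be told apart. No label names separate cultures, and each group has 1 array. The spread behind the p-values is therefore how far treatment differences varied between strains, and the small number of arrays limits the precision. A response limited to the RNAi tissue of 1 strain would count as spread in these tests. A gene that did not pass is thus not shown to be unchanged.

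Of the 50 genes, 16 had a mean log2 intensity above 5 (32 units) and 34 lay at or under it, where the floor of the scale compresses any difference. In 31 genes all 8 arrays were under 32. The genes just above this limit were gst-13 (mean log2 5.10) and gsr-1 (5.23), and those just below were gst-16 (4.86) and gstk-1 (4.85). Brightness depends on the probes, so it says how well a gene can be read and not how its level compares with that of another gene. The best-read features were gst-1, a pi-class transferase, with intensities between 485 and 640 on the 8 arrays, and gcs-1, with 185 to 275. Next came gst-36 (98.4 to 176), gsto-1 (62.2 to 322), gst-42 (103 to 130), gst-28 (78.4 to 153), gst-26 (60.4 to 118.6) and gsto-3 (48.0 to 75.4). The remaining 8 with a mean above 5 were gst-39, gst-22, gst-4, gst-6, gst-7, gst-20, gsr-1 and gst-13. Among the genes read near the floor were gst-10, which conjugates the lipid peroxidation product hydroxynonenal, with 18.9 to 19.4 units, and gsto-2 (18.9 to 19.9) and gstk-2 (19.3 to 20.0).

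**Figure D1:**
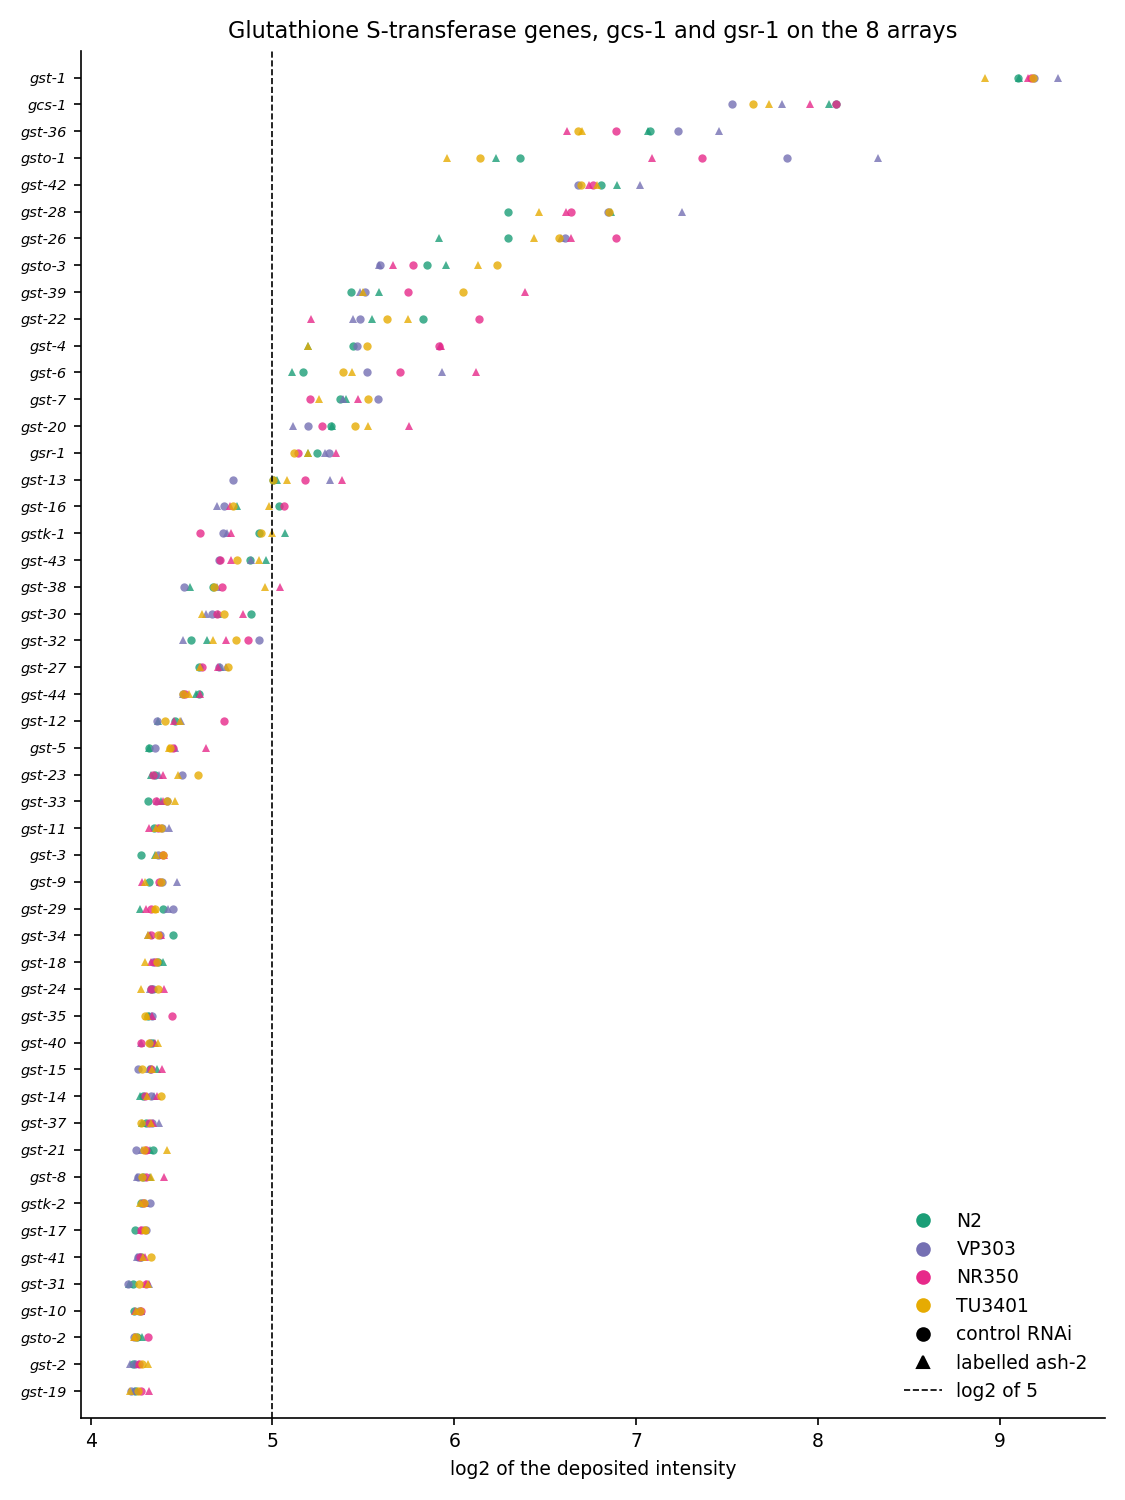
Log2 of the deposited intensity of each of the 50 genes on the 8 arrays, ordered by mean. Colours give the strain, circles the control arrays and triangles the arrays labelled ash-2; the dashed line marks a log2 intensity of 5, which 16 genes exceed on average. The points of gsto-1 are the most widely spread of these 16, from 62.2 to 322 units of intensity.

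Many of the genes sit in neighbour groups on the chromosomes, counted as members with at most 2 other protein-coding genes between them: 25 of the 50 genes fell into 4 such groups, 3 of them on chromosome II. A group of 9 runs from gst-20 to gst-18 and only gst-20 in it had a mean log2 above 5. The other group of 9, from gst-26 to gst-35, had 3 such genes: gst-26, gst-28 and gst-39. A group of 4 holds gst-6 and gst-7, both above 5, beside gst-8 and gst-9, which were not. The fourth, on chromosome IV, holds gst-4 beside gst-3 and gst-2, and of these gst-4 was above 5. No gene of the 16 had a feature elsewhere on the array within 0.05 log2 units of it on all 8 arrays, so none was treated as a shared signal. Features that share signal but differ in brightness would not be found in this way.

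The first comparison asked whether the strains themselves differ, taking the mean of the 2 arrays of a strain. Differences among the 4 strains passed limma's F test in 3 of the 50 genes, against 8.42% of all features: gsto-1, gst-6 and gsto-3. All 3 are among the 16 brighter genes, and 21.4% of all features with a mean log2 above 5 passed. Whether the family as a whole varied more or less than other features was not tested. The range between the highest and the lowest strain mean had a median of 0.44 log2 units over the 16 genes and 0.43 over the 8648 features with a mean above 5. The widest range was that of gsto-1, 2.03 units. With a strain left out gsto-1 passed each time, and the number called was 2 without N2 (with gsto-3), 4 without VP303 (with gst-6, gst-26 and gst-4), 1 without NR350 and 3 without TU3401 (with gst-6 and gst-26).

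The omega-class transferase gsto-1, known in C. elegans as an intestinal enzyme, was highest in VP303 and next in NR350. Its intensity was 228 on the VP303 control array and 322 on the one labelled ash-2, 165 and 136 in NR350, 82.3 and 74.9 in N2, and 70.6 and 62.2 in TU3401. Both VP303 arrays lay above both NR350 arrays, and these lay above all 4 arrays of N2 and TU3401. Against N2, gsto-1 rose by 1.79 (SE 0.19, 3.45-fold, limma adjusted p = 0.00142) in VP303 and by 0.93 (SE 0.19, 1.91-fold, adjusted p = 0.0141) in NR350. TU3401 differed from N2 by -0.24 (SE 0.19, limma adjusted p = 0.575), which did not pass. Against TU3401 the level was 4.08-fold higher in VP303 (limma adjusted p = 7.1e-04) and 2.26-fold higher in NR350 (adjusted p = 0.0047), and NR350 was 1.81-fold lower than VP303 (adjusted p = 0.0261). In these pairs gsto-1 was the 1 member called lower, against 1.2% of all features in TU3401 against VP303 (and 0.399% higher), 4.53% in TU3401 against NR350 (2.22% higher) and 2.35% in NR350 against VP303 (2.84% higher). The higher level in VP303 stood in the control arrays alone, by 1.47, and in the arrays labelled ash-2 alone, by 2.104. When limma took no trend of the variance with level, gsto-1 passed in none of these 5 comparisons, with adjusted p between 0.0558 and 0.133.

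**Figure D2:**
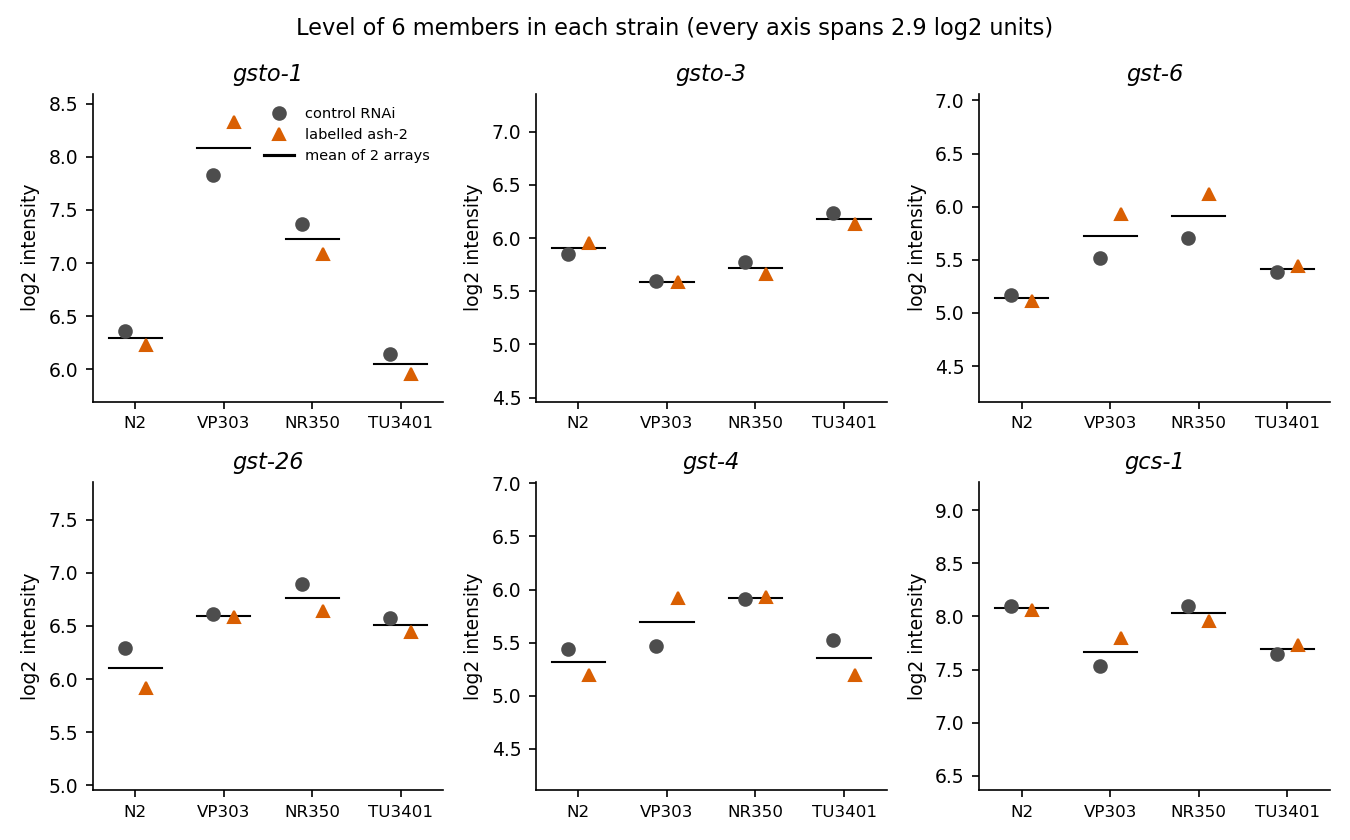
Log2 intensity of 6 members by strain, with grey circles for control arrays, orange triangles for arrays labelled ash-2 and a bar at the mean of the 2 arrays; every axis has the same span. The VP303 and NR350 points of gsto-1 lie above all points of N2 and TU3401, while the strain ranges of the other 5 genes are 0.41 to 0.77 log2 units.

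The related gsto-3 had another order, highest in TU3401. Its intensities were 75.4 and 70.0 in TU3401, 57.8 and 62.1 in N2, 54.6 and 50.7 in NR350, and 48.3 and 48.0 in VP303, the control array given first. The arrays of no pair of strains overlapped, but the same held for gst-35, near the floor (limma F test, adjusted p = 0.387). How many of all features separate in this way was not counted, here or for the other genes. Among the 6 pairs of strains, that of TU3401 and VP303 passed, with a rise of 0.59 in TU3401 (SE 0.13, 1.51-fold, limma adjusted p = 0.0453), and TU3401 against NR350 gave 0.46 (SE 0.13, adjusted p = 0.0521). The first of these was lost under 6 alternatives, among them leaving out N2 (adjusted p = 0.062) or NR350 (adjusted p = 0.0697). The omega-class gsto-2 was at the floor.

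Of the standard transferases, gst-6 and gst-26 rose in NR350 against N2. For gst-6 the intensities were 36.0 and 34.5 in N2, 45.8 and 61.1 in VP303, 52.1 and 69.6 in NR350, and 41.8 and 43.3 in TU3401. Both N2 arrays were the lowest of the 8. The difference in NR350 was 0.77 (SE 0.14, 1.71-fold, limma adjusted p = 0.00858), and that in VP303 was 0.59 (SE 0.14, adjusted p = 0.137). Its neighbour gst-7 differed from N2 by -0.05 in NR350 (adjusted p = 0.923), and the difference between the 2 genes was not tested. For gst-26 the intensities were 78.6 and 60.4 in N2, 97.5 and 96.1 in VP303, 118.6 and 99.98 in NR350, and 95.3 and 86.8 in TU3401. N2 was again below every other array, and NR350 stood 0.66 above it (SE 0.15, 1.58-fold, limma adjusted p = 0.0195).

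Counted over the family, 1 of the 50 genes passed limma as higher in VP303 than in N2, against 0.457% of all features. As lower, 0 passed, against 0.184% (3 at an unadjusted p under 0.05, against 4.32%). In NR350, 4 passed as higher, against 4.02%, and 0 as lower, against 3.16% (1 at an unadjusted p under 0.05, against 10%). The fourth gene there was gst-5, close to the floor, with a small rise of 0.22 (SE 0.06, limma adjusted p = 0.0418). It read 20.0 units on each N2 array and 21.9 and 24.8 in NR350. This gene did not pass without VP303, without the treatment term or without a trend of the variance with level. In TU3401 limma called 0 of the 50 in either direction, against 0.374% higher and 0.23% lower. Without adjustment 5 passed there as higher and 2 as lower at the same threshold, against 8.22% and 7.35%. The 3 comparisons share the N2 arrays, so the low N2 arrays of gst-6 and gst-26 enter each of them, although both genes passed in NR350 alone of the 3. The median difference of the 50 genes was 0.018 for VP303, 0.021 for NR350 and 0.0071 for TU3401, and over all features 4.8e-04, 8.4e-04 and 0.0088.

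**Figure D3:**
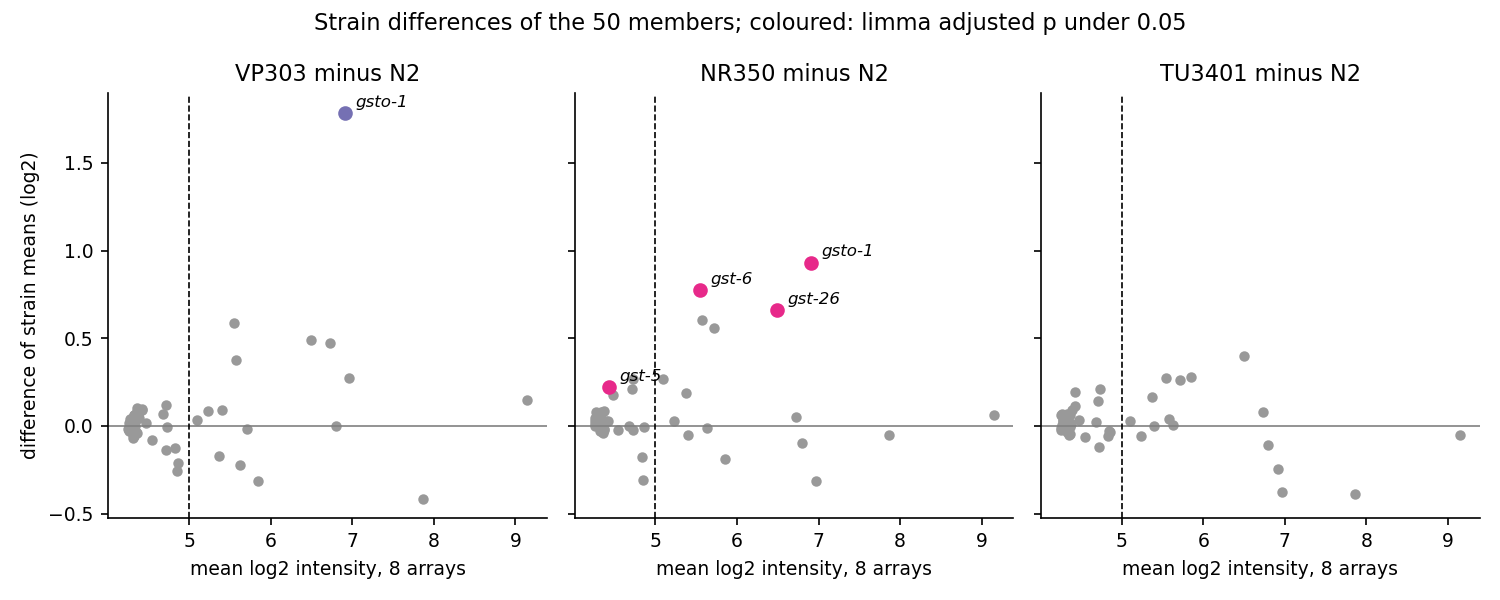
Difference of each strain's mean log2 intensity from that of N2, for the 50 genes, against the mean log2 intensity of the 8 arrays. Coloured and named points passed limma at an adjusted p under 0.05 (1 in VP303, 4 in NR350 and 0 in TU3401); the dashed line marks a mean of 5.

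Neither SKN-1 reporter passed against N2 in any strain. For gst-4 the intensities were 43.6 and 36.7 in N2, 44.2 and 60.7 in VP303, 60.3 and 60.9 in NR350, and 45.9 and 36.7 in TU3401. Its 2 NR350 arrays agreed closely and stood above both N2 arrays, a difference of 0.60 (SE 0.17, 1.52-fold, limma adjusted p = 0.0636). That difference passed when only features with 1 symbol or a mean log2 above 5 were tested, or when VP303 or TU3401 was left out. For gcs-1 the intensities were 274 and 267 in N2, 275 and 248 in NR350, 200 and 213 in TU3401, and 185 and 223 in VP303. N2 and NR350 lay above the other 2 strains on every array, but neither VP303 (-0.41, SE 0.16, limma adjusted p = 0.416) nor TU3401 (-0.39, SE 0.16, adjusted p = 0.269) passed against N2. The transferase gst-36 read 134.9 and 133.9 in N2, 150.2 and 175.5 in VP303, 118.7 and 98.4 in NR350, and 102.8 and 104.0 in TU3401. Both VP303 arrays were the highest, and its 1.57-fold difference between VP303 and TU3401 had a limma adjusted p of 0.0742. The best-read gene, gst-1, had strain means between 9.05 and 9.26 on the log2 scale, and its F test gave an adjusted p of 0.736. The reductase gsr-1 stayed between 34.8 and 40.8 on all arrays and the zeta-class gst-42 between 103 and 130. With strain ranges of 0.14 and 0.11 log2 units, these were among the flattest of the 16.

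Other genes of the 16 were close to even across the strains. The control array first, gst-1 gave 549 and 552 in N2, 583 and 640 in VP303, 578 and 571 in NR350, and 581 and 485 in TU3401. For gst-42, whose zeta-class enzyme isomerises maleylacetoacetate, the values were 112 and 118.98 in N2, 102.5 and 130.0 in VP303, 108.7 and 107 in NR350, and 103.7 and 110.2 in TU3401. Within VP303 these 2 arrays lay as far apart as the extremes of all 8. The reductase gsr-1 gave 37.9 and 36.6 in N2, 39.7 and 39.1 in VP303, 35.3 and 40.8 in NR350, and 34.8 and 36.7 in TU3401. For gst-7 the strains overlapped throughout, with 41.4 and 42.4 in N2, 47.8 and 41.8 in VP303, 37.0 and 44.4 in NR350, and 46.1 and 38.2 in TU3401. The level of gst-20 was less even. Both VP303 arrays were the lowest, at 36.6 and 34.6, and the array labelled ash-2 in NR350 was the highest, at 53.9. The remaining arrays lay between 38.6 and 46.0, and limma's F test gave an adjusted p of 0.299.

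The strain with most calls also differed in its tissue markers. In NR350, 8 of 9 intestine markers and 8 of 8 body wall muscle markers passed limma as higher than in N2, against 4.02% of all features. The medians of the 2 lists were 0.77 and 0.91. The summed intensity of the intestine markers was 3576 to 3642 in NR350, 2061 to 2188 in N2, 2301 to 2432 in VP303 and 2400 to 2449 in TU3401. For muscle it was 10574 to 11546 in NR350 and 6184 to 7613 in the other strains. Among these intestine markers is elt-2, a GATA factor of the gut, whose strain means on the log2 scale were 6.11 (N2), 6.66 (VP303), 6.89 (NR350) and 6.13 (TU3401). It passed in NR350 (0.78, SE 0.14, limma adjusted p = 0.00578) and not in VP303 (0.55, SE 0.14, adjusted p = 0.143). It was the highest intestine marker in neither strain. These markers ran from -0.01 (asp-1) to 0.63 (pho-1) in VP303 and from 0.04 (elt-7) to 1.40 (ifb-2) in NR350. In VP303, where gsto-1 was highest, 0 of 9 intestine and 0 of 8 muscle markers passed, and the intestine median was 0.21. Of 8 hypodermis markers, 1 passed as higher in VP303, against 0.457% of all features, and 2 in NR350. Of 10 neuron markers, 1 passed as higher in NR350, and of 7 germ line markers 1 passed as lower there, against 3.16% of all features. No marker of the 5 tissues passed in TU3401. The part of these shifts in the transferase differences was not tested.

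**Figure D4:**
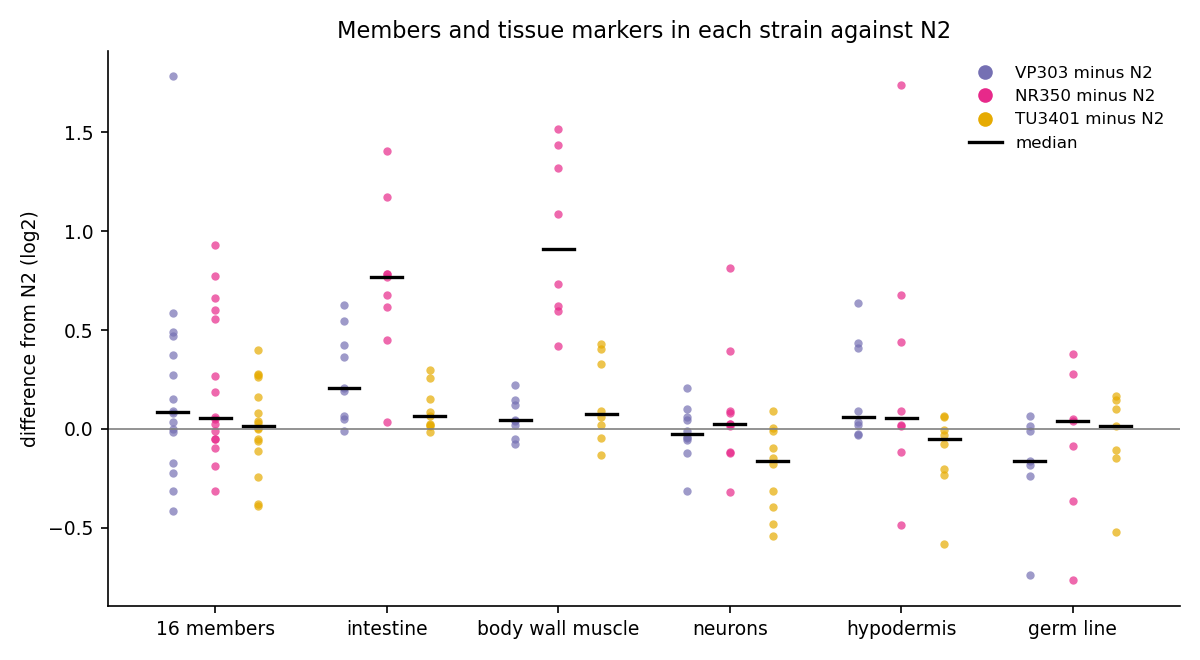
Difference from N2 on the log2 scale for the 16 members with a mean log2 above 5 and for the markers of 5 tissues, with 1 point per gene, colours for the strains and a bar at the median. Intestine and muscle markers stand at medians of 0.77 and 0.91 in NR350; the single highest member is gsto-1 in VP303.

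A few other genes of glutathione metabolism were also higher in NR350 than in N2. Most of those listed did not pass there, and none passed in VP303 or TU3401. Among 15 genes of glutathione synthesis and its precursors, 3 passed as higher in NR350 and 0 as lower. The 3 were sams-1, which makes S-adenosylmethionine (1.14, SE 0.14), cbs-1, a cystathionine beta-synthase (0.59, SE 0.13), and ahcy-1, which hydrolyses S-adenosylhomocysteine (0.47, SE 0.09). The glutathione synthetase gene gss-1 differed by -0.20 (SE 0.20, limma adjusted p = 0.719). The lowest of this list was E01A2.1, at -0.22 (SE 0.15, limma adjusted p = 0.525). Of the 15 differences, 12 lay above 0 and 3 below. The member gcs-1 differed by -0.05 in NR350 (SE 0.16, limma adjusted p = 0.930). Among 25 genes listed as enzymes and exporters that use glutathione, 3 passed as higher there and 0 as lower. They were the transporter genes hmt-1, of the phytochelatin route (1.03, SE 0.18), mrp-5 (0.70, SE 0.16) and mrp-1 (0.45, SE 0.10). What these transporters carry was not measured. None of 10 thioredoxin system genes passed in any strain by limma. Of 12 genes of the SKN-1 pathway, 3 passed as higher in NR350: the p38 kinase pmk-1 (0.83, SE 0.16), its activating kinase sek-1 (0.81, SE 0.16) and the mitochondrial dehydrogenase alh-6 (0.77, SE 0.18). The gene skn-1 itself differed from N2 by 0.06 to 0.19 in the 3 strains (SE 0.16 each), and 0 of 10 other SKN-1 target genes passed in any strain. The median difference from N2 in NR350 was 0.25 for synthesis and precursors, 0.04 for enzymes and exporters, 0.02 for the thioredoxin system, 0.15 for the SKN-1 pathway and 0.08 for the other targets, beside 8.4e-04 over all features, of which 4.02% were higher.

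The second comparison asked whether the arrays labelled ash-2 differ from the control arrays, with the strain as a block. No member passed limma at an adjusted p under 0.05, where 0% of all features did so, and the smallest adjusted p among the 50 was 0.578. Without adjustment 3 passed at that threshold as higher and 0 as lower, against 3.75% and 4.25% of all features. These were gst-13 (0.21 ± 0.23, SD, n = 4), gst-15 (0.05 ± 0.01) and gst-8 (0.05 ± 0.04), the latter 2 at the floor. The means of 25 genes lay above 0 and those of 25 below. The median of the 50 was 0.0019, and that of all features -0.0028. In all 4 strains the array labelled ash-2 was the higher in 4 genes, against 7.72% of all features, and the lower in 2, against 8.34%.

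Among the 16 brighter genes, the mean differences ran from -0.28 to 0.21. At the low end, gst-22 averaged -0.28 ± 0.46 (SD, n = 4), with intensities of 56.7 and 46.7 in N2, 44.7 and 43.5 in VP303, 70.2 and 37.1 in NR350, and 49.5 and 53.7 in TU3401. Its mean rests on NR350, where the array labelled ash-2 was 1.89-fold lower. Next was gst-26 (-0.20 ± 0.15), lower in all 4 strains, from -0.38 in N2 to -0.02 in VP303. The differences of gst-7 (-0.04 ± 0.24) and gst-1 (-0.03 ± 0.16) were close to 0. At the other end stood gst-13 (0.21 ± 0.23), with 32.1 and 32.5 in N2, 27.6 and 39.8 in VP303, 36.2 and 41.7 in NR350, and 32.1 and 33.8 in TU3401, so that VP303 gave the largest part of its mean. Then came gst-6 (0.21 ± 0.25), higher by 0.42 in both VP303 and NR350 but by -0.06 in N2 and 0.05 in TU3401, gst-28 (0.14 ± 0.43) and gst-42 (0.12 ± 0.15). The spread between strains exceeded the mean in 7 of these 8 genes, the exception being gst-26.

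**Figure D5:**
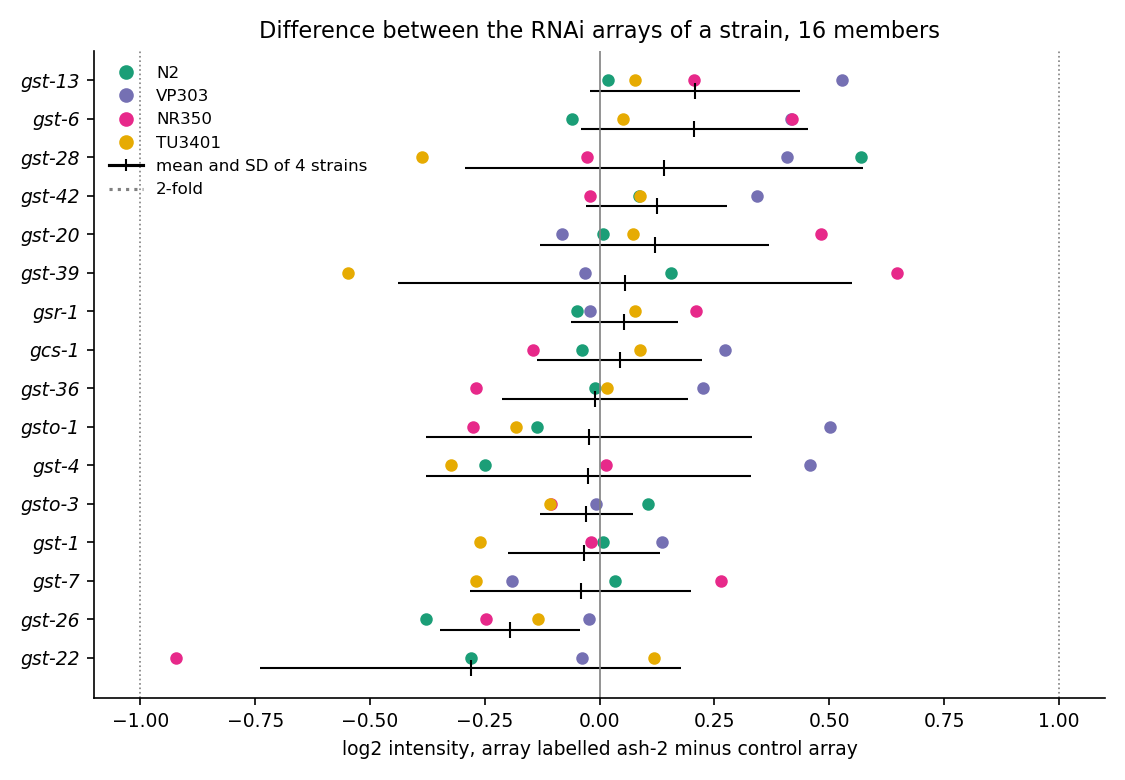
Log2 intensity of the array labelled ash-2 minus that of the control array, for the 16 members with a mean log2 above 5. Points are the strains, black bars the mean ± SD of the 4 strains, and dotted lines 2-fold; no point passes 2-fold, and the farthest is gst-22 in NR350 at -0.92.

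Within a strain each treatment had a single array, so no test is possible; 0 of the 50 genes differed 2-fold in any strain. Over all features, 0.353% did so for N2, 0.363% for VP303, 0.144% for NR350 and 0.137% for TU3401. At 1.5-fold, gst-39 was higher in NR350 (1.57-fold, from 53.6 to 83.9), against 0.306% of all features, and gst-22 lower there, against 0.777%, and 0 genes passed in the other strains. In TU3401 gst-39 went the other way, from 66.2 to 45.3. The largest differences in N2 were those of gst-28 (0.57) and gst-26 (-0.38), in VP303 those of gst-13 (0.53), gsto-1 (0.50), gst-4 (0.46) and gst-32 (-0.42), and in TU3401, beside gst-39, that of gst-28 (-0.39). The reporter gst-4 was higher on the array labelled ash-2 by 0.46 in VP303 and by 0.01 in NR350, and it differed by -0.25 in N2 and -0.32 in TU3401. For gcs-1 the differences were 0.27 in VP303, 0.09 in TU3401, -0.04 in N2 and -0.15 in NR350. Among the kappa-class genes, gstk-1 was higher by 0.02 to 0.17 in every strain, below 34 units of intensity, and gstk-2 was at the floor. The predicted zeta-class gst-43 was higher by 0.06 to 0.17 in every strain (0.11 ± 0.05, limma adjusted p = 0.717), also below 32 units.

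The other genes of the pathway did not pass for the ash-2 label either, as no feature of the array did by limma. The medians of the mean differences were 0.041 over the 15 genes of synthesis and precursors, 0.048 over the 25 enzymes and exporters and 0.020 over the 10 thioredoxin genes. In the first list cbs-1 was highest (0.18 ± 0.15, SD, n = 4) and gss-1 lowest (-0.29 ± 0.39). In the SKN-1 pathway the extremes were skn-1 itself, at 0.31 ± 0.19 (limma adjusted p = 0.551), and pmk-1, at -0.15 ± 0.20.

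The last comparison set the response of N2 and VP303, in which RNAi reaches the intestine per the labels, beside that of NR350 and TU3401. No member passed by limma, where 0% of all features passed, and the smallest adjusted p was 0.734. Without adjustment 2 of the 50 passed as higher, against 2.98%, and 0 as lower, against 2.76%. The largest contrast was that of gst-28. Its intensity went from 78.4 to 116 in N2 and from 115 to 153 in VP303, and from 100.01 to 98.1 in NR350 and from 115 to 88.3 in TU3401, control array first. The mean response was 0.49 in the first pair of strains and -0.21 in the second, a difference of 0.70 (SE 0.22, limma adjusted p = 0.734). The contrasts of gsto-1 (0.41, SE 0.25) and gst-4 (0.26, SE 0.24) rest on VP303, where the arrays labelled ash-2 were higher by 0.50 and 0.46, while N2 differed by -0.14 and -0.25; without VP303 they were 0.09 and -0.09. On the negative side were gst-20 (-0.31, SE 0.18), gsr-1 (-0.18, SE 0.16) and gst-7 (-0.08, SE 0.20). Without NR350 the contrasts of gst-20 and gsr-1 were both -0.11, and without TU3401 they were -0.52 and -0.24.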

How the data were processed

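Per the series' design text and the submitters' processing notes, the authors scanned the arrays with Affymetrix GeneChip Command Console 2.0, imported them into GeneSpring GX 11.0.2 and used RMA, a method that corrects background, makes array distributions alike and combines probes. The deposited table holds 1 linear intensity for each of 27792 features and 8 arrays. The floor offset and the genome build were not given in the sources used here, so no coordinates are given, and the WBcel235 table served for names, chromosomes and gene order.

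Log2 of the intensity was fitted with nothing added and no feature filtered, in limma 3.58.1 (lmFit, eBayes with a trend, two-sided) under R 4.3.3, calling an adjusted p (Benjamini-Hochberg, every feature counted) under 0.05. Strain differences and the F test came from a model of strain and treatment, the treatment from the same model with strain as block (3 residual degrees of freedom), and the class contrast from a response per class (2). Both arrays of a strain were treated as a pair, since the strain is shared: deviations from the treatment means correlated at 0.525 to 0.839 within strains. The script was tested on simulated data. Named were the 8 members with the highest mean and those called among strains. Above a mean log2 of 5, the 4 highest and 4 lowest treatment means and 3 class contrasts per sign were named. The reporters and the omega, zeta and kappa classes were named too. The genes gst-5, gst-8, gst-9, gst-11, gst-15, gst-18, gst-32, gst-35 and the members with over 1.5-fold were named after their values were seen. The members, lists and tests were chosen with earlier results of these data known; the 3 strain pairs without N2 were added after the values were seen. Of the listed genes, nsy-1, opt-2 and msp-142 were not matched.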

Additional observations from a re-analysis of the deposited data

Results flagged for a closer look

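For 3 members with a mean log2 above 5, N2 and VP303 moved one way under the ash-2 label and NR350 and TU3401 the other way. They were gst-28 (difference of the responses 0.70), gst-1 (0.21) and gsr-1 (-0.18). The pattern goes by sign alone, and some of the changes were very small. They were 0.008 in N2 and -0.019 in NR350 for gst-1, -0.021 in VP303 for gsr-1 and -0.028 in NR350 for gst-28. Limma's test of that difference gave adjusted p of 0.734, 0.943 and 0.929, so none passed. The share of all features with this pattern was not counted, so the number of members is a description only. Dimmer members were left out of it, although some near the floor, among them gst-9, gst-11 and gst-18, split in the same way. With 1 array in each group, single arrays could not be tested as outliers.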

How the results depend on the processing

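No member passed for the treatment or the class contrast under any alternative, including the treatment without the strain as a replicate block (0 called), nor for TU3401 against N2. The gene gsto-1 passed the F test under every alternative. The F test called 3 members. It called 5 with features above a mean log2 of 5, with features of 1 symbol or at a threshold of 0.10, and 4 under quantile normalization. It called 2 without the variance trend (gst-6 lost) or with 16 subtracted (gsto-3 lost). With a robust prior it called 3, gst-36 taking the place of gsto-3. It called 1 without the treatment term, and 1 to 4 when a strain was left out, the 1 being gsto-1 without NR350. Without a variance trend, VP303 against N2 called 0 members in place of 1, and NR350 against N2 called 2 (gst-26 higher, gstk-1 lower) in place of 4; 4 to 5 were called there with a strain left out. NR350 against VP303 called 1, but 0 without the trend, 2 with a robust prior or brighter features and 3 at 0.10. TU3401 against VP303 called 2, but 0 without the trend and 1 with 16 subtracted, a robust prior, no treatment term, or N2 or NR350 left out. TU3401 against NR350 called 1, gsto-1, but gsto-3 in its place without the trend. It called 2 under quantile normalization, with 1 symbol or without VP303 (range 1 to 2), and 4 with brighter features or at 0.10. For each of these changes the cause was not tested.

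With 16 subtracted from the intensity, 2 members in VP303 (gst-13 and gst-32) and 1 in NR350 (gst-22) differed 2-fold between the arrays of a strain, where 0 did before. The share of all features on that scale was not counted, and the subtraction widens the differences of every dim feature. Without the subtraction, gst-39 and gst-22 differed 1.5-fold in NR350. Leaving out a strain turned 5 means or contrasts that had not passed: for the treatment gst-1 (-0.09 to 0.041, the last without TU3401), gst-28 (-0.0024 without N2, to 0.32) and gst-7 (-0.14 to 0.035 without TU3401, and 0.0093 without VP303), and for the class contrast gst-4 (-0.094 without VP303, to 0.61) and gst-7 (-0.34 to 0.19 without NR350, and 0.038 without VP303). Taking the mean of several features changes nothing, since each member has 1. The floor near 18 limits what can be seen of the 34 dim members.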
